A study of Mus musculus with 11 samples.

Results

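A set of 10 marker genes of neighbouring hippocampal fields were followed in libraries dissected from CA1, the field that relays the hippocampal output. They were taken by name from 48709 measured gene identifiers. The dentate gyrus was represented by 5 genes (Prox1, Dsp, C1ql2, Stxbp6 and Tdo2), CA3 by 2 (Nectin3 and Iyd) and CA2 by 3 (Amigo2, Rgs14 and Map3k15). The series title concerns heart failure and memory. The tissue was the CA1 field, cut out under a microscope, of mice aged 3 months. There were 6 libraries of the genotype CamkdeltaC transgenic and 5 of littermate controls, and mice of both sexes were used. CamkdeltaC is a splice form of a calcium/calmodulin-dependent kinase, and in this model of heart failure a heart promoter drives it, which is background knowledge and not in the labels. Polyadenylated RNA was sequenced as single reads of 50 bases from libraries that do not mark strand. Whether each library came from its own animal is not given in the labels, so a p-value here measures only how far these libraries differ, which may be technical.

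The hippocampus passes information in a loop from the granule cells of the dentate gyrus through their mossy fibres to the pyramidal cells of CA3, and from there to CA1. CA2 is a small pyramidal field between CA3 and CA1 with a role in social memory. Each field has its own set of transcripts, and the fields lie next to each other, so markers of one field measured in a dissection of another report RNA from beyond the intended field or low expression within it. In bulk tissue, fewer cells of a type and less RNA per cell cannot be told apart.

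Total counts were 24403918 to 34153726 in the transgenic group, 31679533 to 36898689 in control 1 to 4 and 14263784 in control 5, the shallowest. The slope of expression on transcript GC content, in log2 units per 10 percentage points, ran from -0.0607 to 0.274 in transgenic libraries and from -0.22 to -0.0617 in controls, and the groups did not overlap. All 9 genes of a CA1 pyramidal list were detected in every library, at a summed 1244 CPM (counts scaled to library size) in control 3, the lowest, to 1821 CPM in transgenic 3, the highest. Mpped1, the most abundant of them, was at 348 to 526 CPM. Camk2d, the gene of the transgene, had a mean of 67.8 CPM in the transgenic group (SD 36.7, n = 6) against 72.0 CPM in controls (SD 18.6, n = 5), which does not test the labels because the transgene is expressed in the heart.

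Promoter sequence was matched by symbol for 8 of the 10 genes in RefSeq on build GRCm38.p6. All 5 dentate genes rose and fell together across the libraries. As examples of them, the 250 bases before the start of Prox1, Dsp and C1ql2 are shown. Each is written 5′ to 3′ on the strand of its gene, and capitals mark the E-box CANNTG, the motif bound by basic helix-loop-helix factors. The windows are chr1:190170828-190171077 on the minus strand for Prox1, chr13:38151044-38151293 on the plus strand for Dsp and chr1:120340332-120340581 on the plus strand for C1ql2.
Prox1: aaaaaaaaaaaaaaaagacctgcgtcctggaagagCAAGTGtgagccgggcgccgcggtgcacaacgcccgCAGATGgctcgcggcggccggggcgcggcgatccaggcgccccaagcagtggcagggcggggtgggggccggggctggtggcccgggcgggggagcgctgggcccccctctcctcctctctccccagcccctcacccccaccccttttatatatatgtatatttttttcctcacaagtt
Dsp: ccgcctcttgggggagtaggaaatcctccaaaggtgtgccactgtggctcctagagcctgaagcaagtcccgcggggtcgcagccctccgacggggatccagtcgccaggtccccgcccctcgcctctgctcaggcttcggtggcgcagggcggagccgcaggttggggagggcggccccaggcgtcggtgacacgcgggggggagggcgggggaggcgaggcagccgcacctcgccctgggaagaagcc
C1ql2: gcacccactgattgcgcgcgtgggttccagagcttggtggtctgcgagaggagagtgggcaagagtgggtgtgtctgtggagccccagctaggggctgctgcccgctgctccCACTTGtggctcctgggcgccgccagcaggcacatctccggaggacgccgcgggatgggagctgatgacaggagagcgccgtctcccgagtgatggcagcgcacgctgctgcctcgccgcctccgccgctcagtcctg

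These 3 promoters shared no motif of those searched. On both strands of the same 250 bases, the E-box was found 2 times in Prox1, 1 time in C1ql2 and not in Dsp. The GC box GGGCGG was found 4 times in Dsp, 2 times in Prox1 and not in C1ql2. Stxbp6 held 2 and Iyd 3 E-boxes, Nectin3 5 and Amigo2 4 GC boxes, and Prox1, Tdo2 and Iyd 1 TATAAA each. The cyclic AMP response element TGACGTCA was in none of the 8. Of the first listed promoters of 27025 genes, 66% held an E-box, 32.9% a GC box, 13% TATAAA and 1.62% TGACGTCA. Overlapping matches were each counted, and a match is a description of the letters only.

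Among the dentate genes, Prox1 encodes the homeobox factor that sets and keeps granule cell identity (ENSMUSG00000010175, chromosome 1, 190118035 to 190170714, minus strand, build mm10). Prox1 was at 18.6 CPM in the lowest transgenic library, 32.4 at the median and 55.5 in the highest. Control 1 to 5 were at 31.9, 40.6, 76.0, 68.1 and 18.6 CPM. Transgenic 2 and 4 and control 3 and 4 were high, transgenic 3, 5 and 6 and control 5 were low, transgenic 1 and control 1 and 2 lay between, and the groups overlapped.

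Dsp encodes desmoplakin, a linker of desmosomes to intermediate filaments that is used as a granule cell marker in the hippocampus (ENSMUSG00000054889, chromosome 13, 38151294 to 38198577, plus strand). In transgenic libraries Dsp ranged from 3.09 CPM through a median of 12.2 to 30.3. In control 1 to 5 it was at 11.1, 9.33, 40, 38.1 and 2.80 CPM. The low libraries were those of Prox1, transgenic 1, 2 and 4 and control 3 and 4 were high, and again the groups overlapped. From control 5 with 40 reads to control 3 with 1473 reads, the level of Dsp rose 14.3 times, the widest span of the 9 markers with a count above 0 in every library.

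C1ql2, a complement-like protein that granule cells release at mossy fibre synapses (ENSMUSG00000036907, chromosome 1, 120340582 to 120343174, plus strand), was at 3.62 CPM in the lowest transgenic library, 14.1 at the median and 29.2 in the highest. The controls, in label order, were at 6.99, 16.4, 21.0, 16.2 and 6.17 CPM. Transgenic 2 was the highest of all libraries for C1ql2, whereas control 3 was for Prox1 and Dsp.

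Stxbp6 encodes amisyn, which binds the SNARE proteins of vesicle fusion (ENSMUSG00000046314, chromosome 12, 44852484 to 45074709, minus strand). Its transgenic libraries were at 30.5 CPM, 40.7 and 53.8 at the lowest, median and highest. The controls stood at 40.2, 57.9, 79.9, 78.8 and 44.1 CPM. Control 2, 3 and 4 stood above every transgenic library, and control 1 and 5 lay within the transgenic range. The span from lowest to highest, 2.62 times, was the smallest of the 5 dentate genes.

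Tdo2, tryptophan 2,3-dioxygenase of the kynurenine pathway and a marker of mature granule cells (ENSMUSG00000028011, chromosome 3, 81957090 to 81976202, minus strand), was the sparsest dentate gene. Transgenic libraries were at 0.579 CPM, 1.33 and 2.78 at the lowest, median and highest. In control 1 to 5 it was at 1.06, 1.58, 3.20, 3.39 and 0.561 CPM, and control 5 held 8 reads. As for Dsp, transgenic 1, 2 and 4 and control 3 and 4 were high.

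**Figure D1:**
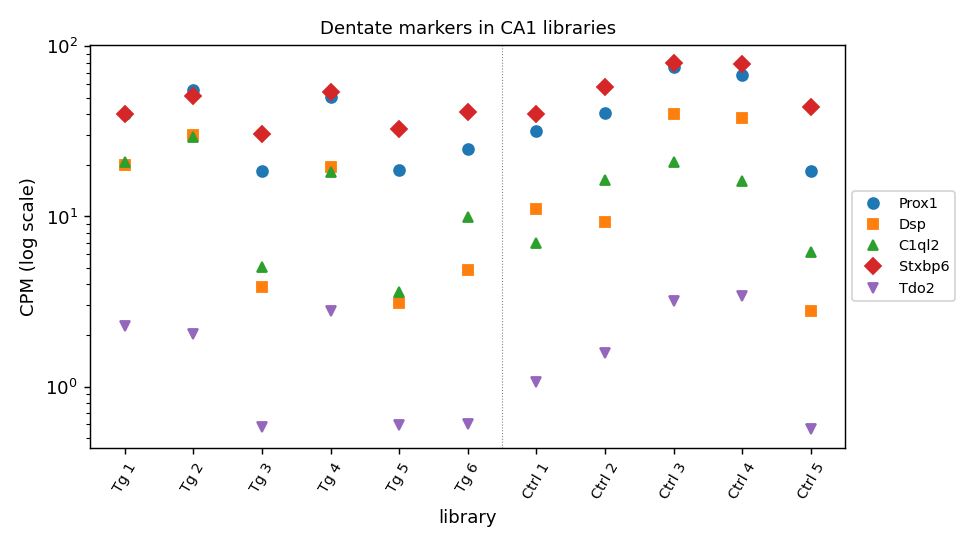
CPM of the 5 dentate markers (log axis) in each of 6 transgenic (Tg) and 5 control (Ctrl) libraries, 1 point per library. Tg 3, 5 and 6 and Ctrl 5 lie low for Prox1, Dsp and Tdo2, with Dsp from 2.80 CPM in Ctrl 5 to 40 CPM in Ctrl 3.

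Of the CA3 genes, Nectin3 encodes an immunoglobulin-like adhesion protein of synaptic junctions (ENSMUSG00000022656, chromosome 16, 46387706 to 46498525, minus strand). It was at 14.2 CPM in the lowest transgenic library, 16.9 at the median and 20.6 in the highest. The 5 controls were at 17.9, 18.4, 33.2, 21.4 and 18.4 CPM. Control 3 stood apart from the other 10 libraries, which lay between 14.2 and 21.4 CPM.

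Iyd, an iodotyrosine deiodinase that recovers iodide in the thyroid and serves as a CA3 marker (ENSMUSG00000019762, chromosome 10, 3540240 to 3554877, plus strand), was at the edge of detection and failed the filter on low counts. The transgenic libraries held 9, 8, 0, 14, 1 and 7 reads in the order of their labels, and control 1 to 5 held 5, 6, 78, 17 and 3. A count of 0 in transgenic 3 allows up to 0.123 CPM, counting error only. Control 3, at 2.12 CPM, was again the highest, and the next were transgenic 4 at 0.549 and control 4 at 0.548 CPM.

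Of the CA2 genes, Amigo2 encodes a leucine-rich repeat adhesion protein (ENSMUSG00000048218, chromosome 15, 97244125 to 97247287, minus strand). Transgenic libraries were at 6.58 CPM, 8.27 and 11.1 at the lowest, median and highest. In the controls Amigo2 was at 9.15, 8.02, 19.2, 8.77 and 6.94 CPM. Control 3 was the only library above 11.1 CPM, and the other 4 controls lay within the transgenic range.

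Rgs14, a regulator of G protein signalling that restrains plasticity in CA2 (ENSMUSG00000052087, chromosome 13, 55369732 to 55384687, plus strand), was the most abundant of the 10 markers per length. It was at 69.0 CPM in the lowest transgenic library, 110 at the median and 117 in the highest. In the controls Rgs14 was at 90.3, 75.2, 101, 90.0 and 79.1 CPM. Transgenic 1 to 5 all lay above every control, and transgenic 6 lay below every control.

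Map3k15, a kinase of the stress-activated MAP kinase cascade (ENSMUSG00000031303, chromosome X, 159988433 to 160123351, plus strand), was at 0.744 CPM in the lowest transgenic library, 1.35 at the median and 2.77 in the highest. In the controls Map3k15 was at 1.19, 1.03, 2.44, 1.16 and 1.47 CPM. Transgenic 6 and control 3 were the highest and the groups overlapped. Its exons overlap those of Pdha1, which had a mean of 5307 counts, so reads of these genes cannot be told apart there. Exons of Prox1 overlap Prox1os (mean 46.2 counts), those of Amigo2 overlap Pced1b (122) and those of Dsp overlap Gm10129 (0.818).

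**Figure D2:**
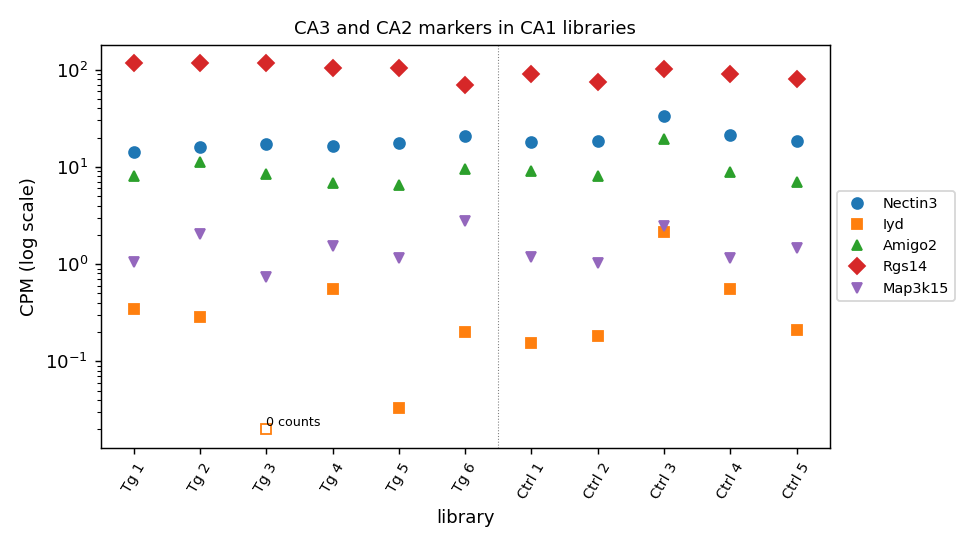
CPM of the 2 CA3 and 3 CA2 markers (log axis) in each of 6 transgenic (Tg) and 5 control (Ctrl) libraries, 1 point per library. Ctrl 3 is highest for Nectin3 (33.2 CPM), Iyd (2.12) and Amigo2 (19.2), and the open square marks the 0 reads of Iyd in Tg 3.

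Per length, as TPM (counts scaled to exon length and library size), Rgs14 was the highest in controls at 84.7 ± 9.26 TPM (SD, n = 5). It was followed by Stxbp6 at 46.6 ± 13.5, C1ql2 at 27.4 ± 13.0 and Prox1 at 22.9 ± 11.5 TPM. Amigo2 at 13.5 ± 6.36, Dsp at 8.53 ± 7.25 and Nectin3 at 7.07 ± 2.03 TPM came next. Tdo2 at 2.06 ± 1.30, Iyd at 1.62 ± 2.11 and Map3k15 at 1.38 ± 0.539 TPM were the lowest. Of neighbours in this order, only Rgs14 and Stxbp6, and Nectin3 and Tdo2, had ranges that did not overlap over the 11 libraries. The other 7 pairs of neighbours had ranges that overlapped. Both genes of a pair were measured in the same libraries, and their order within each library was not tested.

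Between the genotypes, none of the 9 markers that passed the low-count filter was called by edgeR's quasi-likelihood test at a Benjamini-Hochberg adjusted p under 0.05, whereas 17.9% of all genes tested were called (3094 of 17293). At an unadjusted p under 0.05 there were 2, Stxbp6 and Nectin3. DESeq2 called 1, Stxbp6, and limma voom called 0, beside 3883 and 3051 of all 17293 genes. The estimate was lower in transgenic libraries for 6 of the 9, with a median log2 fold change of -0.37 against 0.01 over all genes tested. Of all genes tested, 48.5% had a negative estimate. For the 5 dentate genes the median was -0.48, and 4 were lower. The dentate genes were correlated across the libraries (r 0.70 to 0.98), so they are not 5 separate observations. Without control 3, Prox1 was at -0.21, Dsp at -0.20, Tdo2 at -0.23, Stxbp6 at -0.41 and C1ql2 at 0.32. The authors' deposited tables of 1780 higher and 2014 lower genes list none of the 10.

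Stxbp6 had the smallest unadjusted p of the 9, at 41.5 ± 9.39 CPM in transgenic (SD, n = 6) and 60.2 ± 18.7 CPM in control libraries (SD, n = 5). Its log2 fold change was -0.54 (SE 0.19, 95% interval -0.98 to -0.10, edgeR adjusted p 0.0699). Nectin3 followed at -0.37 (SE 0.15, -0.71 to -0.02, edgeR adjusted p 0.106), and at -0.16 without control 3. Rgs14 was at 0.26 (SE 0.12, -0.02 to 0.53, edgeR adjusted p 0.156). Rgs14 was called at 0.35 (edgeR adjusted p 0.00669) when transgenic 6 was left out, a fit that called 4712 of 17068 genes. Stxbp6 was called by DESeq2 at the same fold change (adjusted p 0.0286). It was called by edgeR at -0.66 when control 1 was left out (adjusted p 0.0445), beside 1835 of 17357 genes. The direction of these 3 was the same in every fit that left out 1 library.

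Prox1 had a log2 fold change of -0.45 (95% interval -1.27 to 0.36) and Dsp of -0.60 (-2.10 to 0.89). C1ql2 was at 0.09 (-0.98 to 1.17) and Tdo2 at -0.48 (-1.59 to 0.64). Amigo2 was at -0.32 (-0.85 to 0.21) and Map3k15 at 0.09 (-0.64 to 0.82). The edgeR adjusted p of these 6 was 0.356 to 0.909. The intervals of Prox1, Dsp, C1ql2 and Tdo2 include changes of more than 1 log2 unit, so a missed threshold does not show equal levels. When the GC trend of each library was removed, Stxbp6 went to -0.32, Tdo2 to -0.06 and C1ql2 to -0.20. None of the 9 was then at an unadjusted p under 0.05 in edgeR. The part of the GC slopes in these differences was not tested beyond that removal.

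**Figure D3:**
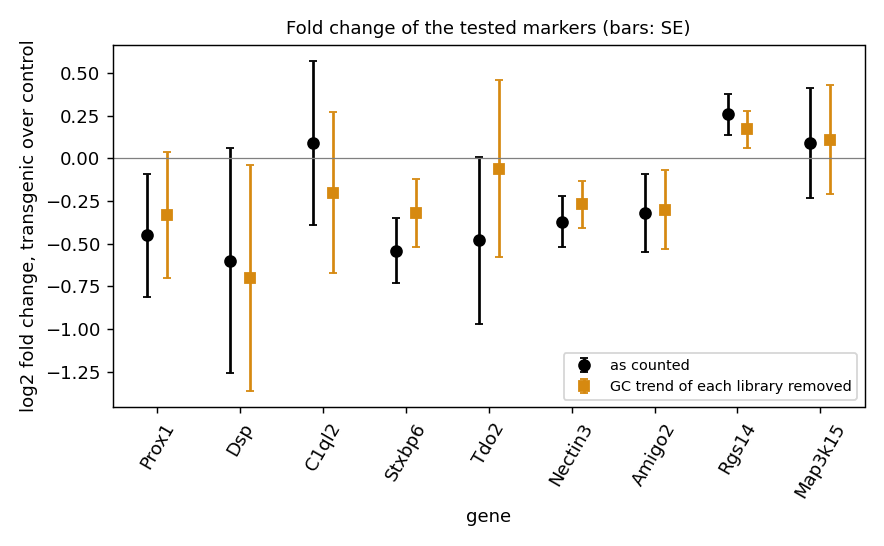
Log2 fold change of the 9 tested markers, transgenic over control, with bars of 1 SE, as counted (black circles) and with each library's GC trend removed (orange squares). Dsp is lowest at -0.60 and Rgs14 highest at 0.26 as counted, and the widest bars belong to Dsp.

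Within the genotypes the 9 tested markers varied more than the median gene, and 4 of the dentate markers had the highest spread. The SD of log2 CPM around the genotype means was 1.5 for Dsp, rank 15 of 17293 genes, and 1.04 for both C1ql2 and Tdo2, ranks 73 and 74. Prox1 had 0.76 (rank 231) and Stxbp6 0.39 (rank 2269). The median was 0.13 over the 13470 genes with a mean log2 CPM of at least 1. Map3k15 had 0.58, Amigo2 0.43, Nectin3 0.28 and Rgs14 0.25, so all 9 lay above that median. Tdo2 and Map3k15 were below a mean log2 CPM of 1, where counting error adds to the spread.

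The dentate markers rose and fell together across the 11 libraries. All 10 dentate pairs passed a two-sided permutation test of Pearson r on log2 CPM, with a Benjamini-Hochberg adjusted p under 0.05 over all 45 pairs of the 10 markers. Their r ran from 0.70 to 0.98 with a median of 0.87. The markers were chosen with earlier results of these data known. The permutation p-values here and below are thus a description and not a separate test of them. For Prox1 and Dsp r was 0.98 (permutation p 1e-05, the smallest that 100000 resamples can give, adjusted 0.00045). Spearman's rho was 0.93 (permutation p 9e-05, adjusted 0.00135), and r was 0.96 without transgenic 3 and control 5, the libraries farthest from the median of Prox1. Prox1 and Tdo2 had r 0.97 and rho 0.94 (permutation p 2e-05 and 9e-05, adjusted 0.00045 and 0.00135), and r 0.95 without the same libraries. Dsp and Tdo2 had r 0.96 and rho 0.94 (permutation p 6e-05 and 7e-05, adjusted 0.0009 and 0.00135), and r 0.95 without control 5 and 3.

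The weakest dentate pair was C1ql2 and Stxbp6, at r 0.70 (permutation p 0.0165, adjusted 0.0496) and rho 0.66 (permutation p 0.0305, adjusted 0.0914). Without transgenic 5 and 3, the farthest libraries, r fell to 0.47, so that relation rests on them. Dsp and Stxbp6 had r 0.77 (adjusted permutation p 0.0197), rho 0.65 (adjusted permutation p 0.0935) and r 0.78 without control 5 and 3. With the genotype means subtracted and libraries permuted within genotype, the 10 dentate pairs had r 0.83 to 0.98 and all passed. Within the 6 transgenic libraries alone r was 0.81 to 0.98 with a median of 0.94. There the exact test over 720 arrangements passed none of the 45 pairs after adjustment. The 5 controls alone are too few for a correlation.

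The CA3 and CA2 markers did not form such a group. None of their 10 pairs passed with Pearson r, which ran from -0.31 to 0.75 with a median of 0.54. Nectin3 and Amigo2 had the highest, r 0.75 (permutation p 0.0385, adjusted 0.102) and rho 0.33 (permutation p 0.326, adjusted 0.544), and r was 0.08 without control 3. Nectin3 and Iyd, both CA3 markers, had r 0.61 (adjusted permutation p 0.133) and rho 0.18, and r 0.03 without control 3. These relations rest on control 3 alone.

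Nectin3 and Rgs14 went in opposite directions by rank, with rho -0.78 (permutation p 0.00594, adjusted 0.0267). Their r was -0.29 (permutation p 0.412, adjusted 0.529) over all libraries, -0.75 without control 3 (adjusted permutation p 0.0365) and -0.71 without control 3 and transgenic 1. With genotype means subtracted and control 3 kept, r was -0.04 (adjusted permutation p 0.885). Within the 6 transgenic libraries r was -0.86 (exact permutation p 0.0194, adjusted 0.117) and rho -0.89 (exact permutation p 0.0333). That r was -0.41 without transgenic 6 and 1, so it rests on them, and it did not pass the adjustment.

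Of the 25 pairs of a dentate with a CA3 or CA2 marker, 5 passed, and each was a dentate gene with Iyd. Their r was 0.74 to 0.87 over all libraries and 0.76 to 0.81 without control 3. Iyd and Stxbp6 had r 0.87 (permutation p 0.00056, adjusted 0.0036), rho 0.79 (permutation p 0.00572, adjusted 0.0267) and r 0.79 without control 3 and 4. Iyd and C1ql2 had r 0.74 (adjusted permutation p 0.0189), rho 0.76 (adjusted permutation p 0.0341) and r 0.51 without transgenic 5 and 3. The sparse CA3 marker Iyd followed the dentate genes, and r with its CA3 partner Nectin3 was 0.03 once control 3 was left out. The difference between these correlations was not tested, and Iyd rests on 0 to 17 reads outside control 3.

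**Figure D4:**
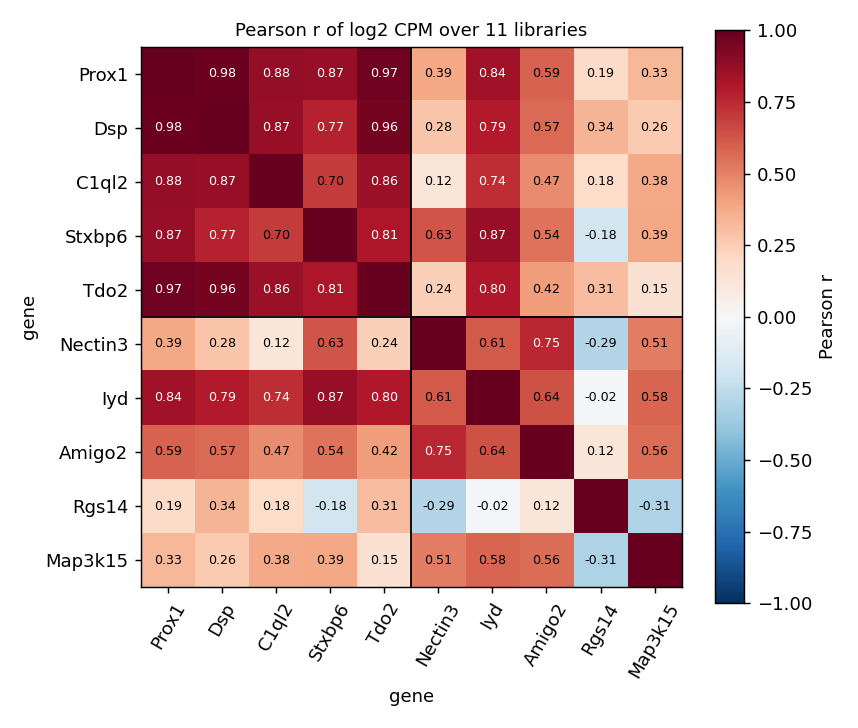
Pearson r of log2 CPM over the 11 libraries for all 45 pairs of the 10 markers, as colour and number, with black lines dividing dentate from CA3 and CA2 markers. The dentate block holds r of 0.70 to 0.98, and Iyd is the one CA3 or CA2 marker with r of at least 0.74 to each dentate gene.

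**Figure D5:**
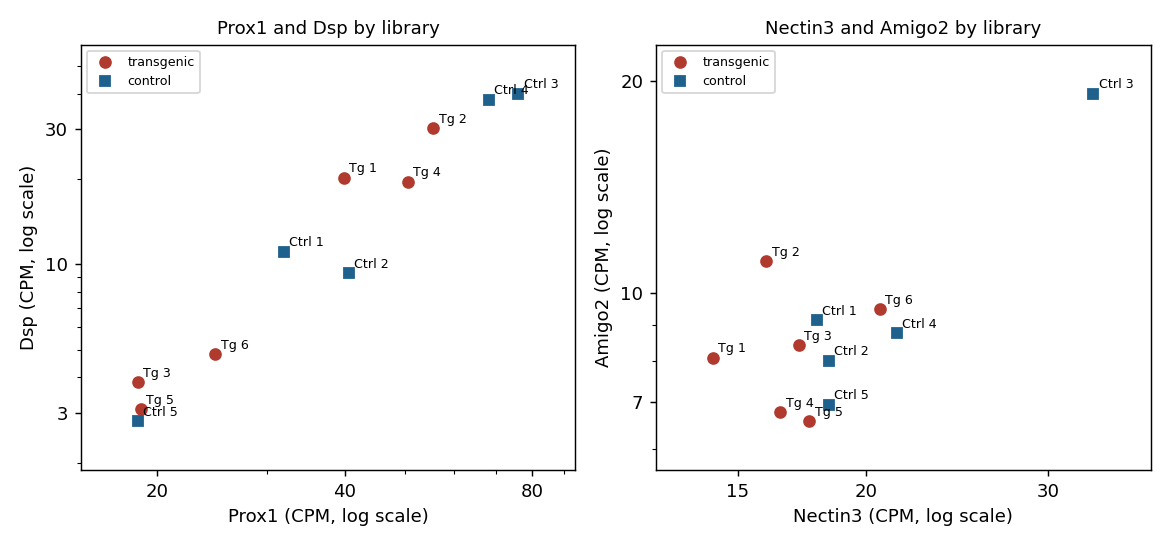
Levels of Prox1 and Dsp (left) and of Nectin3 and Amigo2 (right) in CPM on log axes, 1 point per library, red circles transgenic and blue squares control. Prox1 and Dsp line up over all libraries (r 0.98), while Nectin3 and Amigo2 line up through Ctrl 3 alone (r 0.75 with it, 0.08 without it).

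The dentate genes were also near each other among all genes. With genotype means subtracted, the 20 ranks of 1 dentate gene by r with another ran from 3 to 177 of 17292, with a median of 63. Dsp was rank 4 by r with Prox1, and Prox1 was rank 3 for Dsp. Tdo2 was rank 10 for both, Prox1 was rank 24 for Stxbp6 and rank 30 for C1ql2. Stxbp6 had the highest number among them, rank 177 for Dsp. The 12 ranks among the tested CA3 and CA2 markers ran from 142, for Nectin3 with Amigo2, to 13669, with a median of 2472. These ranks share the 11 libraries and their GC slopes and are a description.

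A set of 164 genes, the 5 dentate markers included, had a mean r above 0.8 with the dentate markers. Those outside every list with the highest mean r were Lgr6, a receptor for R-spondins, Vwa3a, Smoc2, a matricellular calcium-binding protein, Sema5a, a semaphorin, and Npnt, an integrin ligand of the matrix. Each had a mean r of 0.94, and 0.93 to 0.95 when any 1 library was left out. Lgr6 ran from 1.78 CPM in transgenic 3 to 20.1 CPM in control 4, and Smoc2 from 3.08 CPM in control 5 to 27.8 CPM in control 3. None of the 5 was called between genotypes (edgeR adjusted p 0.199 to 0.672).

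A further list of 10 dentate granule cell genes was compared with the dentate markers across libraries, and 5 of them had a mean r above 0.8. All 10 had a positive mean r with the dentate markers, with a median of 0.82. A positive sign was not particular to it, since all 6 astrocyte genes (median 0.47), all 6 microglial genes (0.51) and all 7 tested genes of the other CA2 list (0.39) were also positive, and their part in the dentate pattern was not tested. Glis3 and Rfx3, transcription factors, had 0.93 and 0.78, Dock10, an exchange factor for small GTPases, 0.92, Plk5, a polo-like kinase, 0.92, and Trpc6, a cation channel, 0.89. Igfbp5 and Sema5b had 0.13 and 0.16. Of the CA1 pyramidal list, 7 of 9 had a negative mean r, from -0.77 for Ndst4, a heparan sulfate enzyme, and -0.73 for Man1a, a mannosidase, to 0.18 for Fibcd1, at a median of -0.43. That sign was not particular to CA1. All 5 subiculum genes (median -0.49), all 6 neocortex genes (-0.32) and all 6 oligodendrocyte genes (-0.23) were negative. CPM values are shares of a total, and how far that links the lists was not tested.

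Some genes that other hippocampal lists assign to CA3 or CA2 also followed the dentate markers. Ntf3, the neurotrophin NT-3, had a mean r of 0.89, Grik4, a kainate receptor subunit, 0.83, and Pcp4, a calmodulin-binding peptide, 0.82. With the dentate markers, the other CA3 list ran down to -0.13 (Cdh24) at a median of 0.27. The other CA2 list ran down to 0.01 (Adcy5) at a median of 0.39. Such values were not particular to these fields. The interneuron gene Adarb2 had 0.83 and Mki67 of the neurogenic niche 0.82, each the highest of its list (medians 0.05 and 0.61). Spock1 and Coch, likewise on the CA3 list, had 0.28 and 0.16 with the dentate markers and 0.80 and 0.81 with Nectin3, while the 6 genes of that list ran from -0.39 (Cdh24) to 0.81 with Nectin3 at a median of 0.66. Single markers of other tissue were as high with Nectin3, with the ependymal Rarres2 at 0.91, the thalamic Prkcd at 0.86 and the astrocytic Aqp4 at 0.80. Each was the highest of its list. The thalamic genes ran down to -0.10 (Ntng1) and the astrocytic to -0.01 (Aldoc), and the other tested ependymal gene, Foxj1, had 0.70. With the CA2 markers, the 7 tested genes of the CA2 list had a mean r of -0.23 (Adcy5) to 0.59, at a median of 0.32. The highest was Stard5, a lipid transfer protein, whose highest library was control 3 (22.5 CPM). This was not particular to the CA2 list, since choroid plexus genes had 0.08 to 0.58 at a median of 0.35.

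The genes most like Nectin3 were Hibadh, Emp1, Foxn2, Sdcbp and Drc3, at r 0.92 to 0.94. Control 3 was the highest library for all 5. For Drc3 r was 0.69 without control 3, and with the GC trend removed r was 0.00 for Hibadh, 0.67 for Foxn2 and 0.64 for Sdcbp, against 0.93 for Emp1 and 0.94 for Drc3. Foxn2, a forkhead factor, was called between the genotypes at -0.34 (edgeR adjusted p 0.0246). The genes most like the 3 CA2 markers were Clmp, Anxa11, Il16, Ippk and Dnaic2, at a mean r of 0.58 to 0.61, and control 3 was the highest library for each. Without control 3 their mean r was 0.36 to 0.41, and without transgenic 6 it was 0.73 to 0.80.

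Markers of other tissue moved with control 3 as well. Control 3 was the highest library for all 8 choroid plexus genes and all 5 ependymal genes. The summed choroid plexus list was at 56.2 CPM in control 3, 13.6 to 32.3 in the other controls and 13.7 to 25.8 in transgenic libraries. The defining marker Ttr was at 39.5 CPM in control 3 and 5.58 in control 4. The ependymal sum was 18.1 CPM in control 3 and 5.37 to 10 CPM in all others, with Tmem212 at 0 in 3 of them. Control 3 was also the highest for 4 of 6 other CA3 genes and 5 of 8 other CA2 genes, and the lowest for the CA1 sum. The part of this in the levels of Nectin3, Iyd and Amigo2 was not tested.

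Across genotypes, the other dentate lists gave 2 calls each, which is to be read against the 17.9% called over all genes. Of 10 further dentate granule cell genes 2 fell, a share near that background, Rfx3 by 0.66 (SE 0.16, edgeR adjusted p 0.0183) and C1ql3, a relative of C1ql2, by 0.56 (SE 0.11, edgeR adjusted p 0.0123), and none rose. The median of the list was -0.26. C1ql3 was called in all 11 fits that each left out 1 library and after removal of the GC trend (-0.66, edgeR adjusted p 0.0314). Rfx3 was called in 10 of those fits but was at -0.31 after the removal (edgeR adjusted p 0.323). C1ql3 was at 23.5 to 34.4 CPM in transgenic and 36.3 to 51.2 CPM in control libraries, which did not overlap, and its mean r with the dentate markers was 0.47.

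Of 7 tested genes of the dentate neurogenic niche 2 fell and none rose, beside 17.9% called over all genes, and nothing is read from so small a list. Neurod1, a factor of differentiating granule neurons, fell by 0.59 (SE 0.12, edgeR adjusted p 0.0123) and was called in all 11 fits that left out 1 library. Dcx, a microtubule protein of immature neurons, fell by 0.49 (SE 0.16, edgeR adjusted p 0.0461), was called in 1 of those fits and was at -0.20 after removal of the GC trend. Neurod1 was then at -0.41 (edgeR adjusted p 0.0865). The niche sum was lower in transgenic (51.7 to 80.4 CPM) than control libraries (73.8 to 89.1), with overlap. Dcx had a mean r of -0.34 with the dentate markers and Neurod1 of 0.77.

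With the mean level of the 5 dentate markers as a covariate, an alternative chosen after seeing the data, 3425 genes were called, of which 2877 were among the 3094. C1ql3 was then at -0.51 (edgeR adjusted p 0.0100), Rfx3 at -0.53 (0.00932), Neurod1 at -0.50 (0.00612) and Dcx at -0.55 (0.0277). All 4 kept their call in this fit, which called more genes over all than the fit without the covariate. The part of dentate RNA in these 4 differences was not tested.

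Calls in the remaining lists are to be read against all 17293 genes tested. Of these edgeR called 3094 (17.9%), DESeq2 3883 and limma voom 3051, and nothing is read from lists this short. None of 6 mossy cell, 6 other CA3 or 7 tested other CA2 genes was called by any of the 3 tools. In edgeR 0 of them were at an unadjusted p under 0.05. Their medians were 0.04, -0.10 and 0.11. The smallest p in each belonged to Drd2, a dopamine receptor, at 0.22, Spock1, a matrix proteoglycan, at -0.21, and Adcy5, an adenylyl cyclase, at 0.12 (edgeR adjusted p 0.338, 0.155 and 0.240). Of the 9 CA1 pyramidal genes 1 fell, Ndst4 by 0.44 (SE 0.13, edgeR adjusted p 0.0317), which was at -0.05 after removal of the GC trend. Lists of subiculum, choroid plexus, ependyma, thalamus, neocortex and oligodendrocyte genes gave no call by any of the 3 tools, at medians of -0.45 to 0.30. At an unadjusted edgeR p under 0.05 they held 2 genes, the water channel Aqp1 of choroid plexus at -0.67 and Mbp, a myelin protein, at 0.36 (adjusted p 0.107 and 0.129). In the other lists of these the smallest p was that of Fn1 (-0.19), Rarres2 (-0.09), Ntng1 (-0.24) and Cux2 (0.28). Slc32a1 of 9 interneuron genes rose by 0.22, Aldh1l1 of 6 astrocyte genes by 0.24, and Csf1r and C1qa of 6 microglial genes by 0.25 and 0.29, while Slco1a4 of 5 endothelial genes fell by 0.36. None of these 5 kept its call after removal of the GC trend (edgeR adjusted p 0.326 to 0.987).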

How the data were processed

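The authors deposited raw counts per Ensembl gene for each of the 11 libraries, on build mm10. Per the submitters' processing notes the tools were Subread 1.5.1, featureCounts, STAR 2.5.2b and FastQC 0.11.5, with no settings. The authors also deposited tables of genes that differed, with a log2 fold change, an adjusted p-value and a signal per library that is a count divided by a size factor, by a tool not given in the sources used here. Symbols came from GENCODE on the same build, for 48349 of 48709 identifiers.

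The members and lists were chosen with earlier results of these data known. Groups and replicate numbers came from the sample titles. Genes were kept with filterByExpr by genotype (17293, holding 99.9% of counts), scaled with TMM and tested with edgeR 4.0.16 (quasi-likelihood, all 11 libraries, no covariate) in R 4.3.3, and Benjamini-Hochberg adjusted p under 0.05 over all genes called a gene. CPM used TMM-scaled totals, log2 CPM a prior count of 2, and TPM the union of exons. Intervals are 95%. Named genes were all members, the 5 genes outside the lists most like each set (mean Pearson r, genotype means subtracted, mean log2 CPM of at least 1), Camk2d, and from each list the called genes or, with none, the gene of smallest p. Correlations used 100000 resamples (Python 3.11.15, scipy 1.17.1).

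Alternatives were DESeq2 1.42.0, limma 3.58.1, other scalings and filters, a replicate block, Xist as a covariate, removal of GC and length trends (lowess, span 0.3, GC known for 17246 genes), and leaving out each library. Chi-square tests between libraries of 1 genotype gave 6.75 to 53.8 times their degrees of freedom, so none was counted as a repeat. The fits and permutations were tested on simulated data.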

Additional observations from a re-analysis of the deposited data

Results flagged for a closer look

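In 4 of the 20 groups of values examined (10 markers in each genotype), 1 library stood far from the others, beyond Dixon's 95% critical value. Chance gives about 1 in 20 groups. Control 3 stood out for 3 markers, with Nectin3 at 33.2 CPM (next control 21.4), Iyd at 2.12 CPM (next 0.548) and Amigo2 at 19.2 CPM (next 9.15). Transgenic 6 stood out for Rgs14 at 69.0 CPM, below the next transgenic library at 103 CPM. These flags share 2 libraries and are not independent.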

How the results depend on the processing

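The number of markers called between genotypes, 0 of 9, was 1 with DESeq2 (Stxbp6, adjusted p 0.0286) and 1 with an Xist covariate (Rgs14, 0.0285), and 0 to 1 when any 1 library was left out (Rgs14 without transgenic 6, 0.00669, and Stxbp6 without control 1, 0.0445). Over all genes, DESeq2 called 3883 and the fit with Xist 3908 of 17293. The fit without transgenic 6 called 4712 of 17068, and that without control 1 called 1835 of 17357. Of 202 fold changes of the 9 markers under alternatives, 182 kept direction and side of the threshold, 6 passed it and 14 changed sign. C1ql2 was at -0.20 with limma voom and with the GC trend removed, -0.22 with GC and length trends removed, and -0.23 to 0.32 when any 1 library was left out. Map3k15 ran from -0.17 to 0.40 and Amigo2 from -0.42 to 0.03 when any 1 library was left out, the last without control 3. Dsp ran from -1.01 without transgenic 2 to -0.20 without control 3.

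With the replicate number as a block, 2 markers were called, Nectin3 at -0.39 (edgeR adjusted p 0.0375) and Rgs14 at 0.36 (0.00613). That fit called 4594 of all 17293 genes, so nothing is read from these 2 calls. Map3k15 was at -0.14. No control carries the number 6, so with the block transgenic 6 adds nothing to the genotype estimate. The fit without transgenic 6 gave Nectin3 -0.43 (edgeR adjusted p 0.0514), Rgs14 0.35 (0.00669) and Map3k15 -0.17. The block is thus not fully separate from leaving out that library, but it also fits the replicate numbers. Dsp was at -0.25 with the block and -0.43 without transgenic 6, and Tdo2 at -0.20 and -0.31. With the block and GC removal together no marker was called, and C1ql2 was at -0.21, Tdo2 at 0.24 and Map3k15 at -0.14. Libraries of the same number had deviations that correlated at -0.185 to 0.197. Of 5 transgenic libraries 1 correlated best with the control of its number. These 5 values are too few to decide whether the numbers pair the samples, and the labels do not say.

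The count of correlated pairs, 15 of 45, was 14 with Spearman's rho and 0 in the transgenic libraries alone, where fewer libraries were used. It was 15 with genotype means subtracted, GC trend removed, raw library sizes or a prior count of 0.5. When any 1 library was left out it was 12 to 17. Of the 10 dentate pairs, 8 passed with Spearman's rho and 8 to 10 when any 1 library was left out. The 14 by rho included the negative pair of Nectin3 and Rgs14. Over all genes, 342 were called after GC removal, 229 of them among the 3094. Depth limits Iyd, Tdo2 and Map3k15, most of all in control 5.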
